A study of Mus musculus with 4 samples.

Results

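The genes described are 40 heat shock and chaperone genes, chosen by symbol from a fixed list and all present among the 31253 genes of the count matrices. By the place and role of their products they fall into 15 cytosolic chaperones and co-chaperones, 3 mitochondrial chaperones, 2 heat shock factors, 15 chaperones and folding enzymes of the endoplasmic reticulum (ER) and 5 regulators of the unfolded protein and integrated stress responses. They were followed in 4 BD Rhapsody single-cell libraries, a microwell method that counts the 3′ ends of transcripts with unique molecular identifiers (UMIs), made from the brains of adult C57B6 mice. Every library came from the ipsilateral hemisphere, removed 3 days after tMCAO, in which the middle cerebral artery is closed for a time to model ischemic stroke, and no cell type was enriched. Flox control 1 and 2 came from Htr2b flox/flox littermates, and Ms4a3 cKO 1 and 2 from mice in which Htr2b, a serotonin receptor gene, was to be deleted in myeloid cells by a Cre; the labels name both an ERCre and Ms4a3-Cre, a driver active in granulocyte and monocyte progenitors, and do not say which made the deletion in these libraries. Mice received tamoxifen followed by a washout of 3 days before surgery, and the libraries hold no uninjured or sham group. The tissue of every library was digested for 10 min at 37 °C. Whether the 2 libraries of a genotype came from separate animals is not said in the labels, so the p-values measure only the spread between these libraries, which may be technical.

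Chaperones bind unfolded proteins and keep them from aggregating. In the cytosol the Hsp70 proteins work with J-domain partners (the Dnaj proteins) and nucleotide exchange factors such as Hsph1 and Bag3, Hsp90 finishes the folding of kinases and receptors, and heat shock factor 1 raises transcription of these genes when unfolded proteins build up. In the ER, the Hsp70 protein BiP (Hspa5), the Hsp90 paralog Hsp90b1, the lectins calnexin and calreticulin and the protein disulfide isomerases fold secreted and membrane proteins, and their transcription is raised by Atf6 and by the spliced form of Xbp1. A further arm acts through translation of Atf4 and its targets Ddit3 (CHOP), Chac1 and Trib3. Ischemia is known to induce both systems in the brain, and so is the handling of tissue during dissociation.

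The matrices held 63181 barcodes, of which 59685 were kept. Totals ran from 77580518 to 105566650 UMIs per library, and median UMIs per kept cell were 6599 and 5523 in the Flox control libraries against 3764 and 4004 in the Ms4a3 cKO libraries, so depth moved with genotype. Clustering without the members gave 28 clusters, 26 of them named from marker genes, and 12 cell classes had at least 50 cells in each library. Oligodendrocytes were kept as single clusters because 1 of their clusters, number 11, led with another class's marker and came almost only from the Ms4a3 cKO libraries (0, 6, 752 and 1346 cells in Flox control 1, Flox control 2, Ms4a3 cKO 1 and Ms4a3 cKO 2, the order used for all values below). The 2 Flox control libraries differed from each other more than the 2 Ms4a3 cKO libraries did: the SD over genes of the log2 difference within a genotype was 0.86 against 0.40 in microglia. Levels are given as CPM, the UMIs of a gene scaled to a common total over all UMIs of that class in that library. Htr2b, the targeted gene, stood at 81.2, 129, 10.7 and 26.1 CPM in monocyte-macrophages and at 46.1, 109, 101 and 85.8 CPM in microglia; in neutrophils it had 0, 13, 4 and 5 UMIs. The labels do not give the deleted exon, and counts of 3′ ends outside it check nothing.

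What the members share in their promoters was read from the RefSeq promoter table (GRCm38.p6, 250 bases before to 50 after each start), which held 31 of the 40. A heat shock element core, GAANNTTC, was searched on both strands; it reads the same on both. It stood in 9 of the 31 members, 7 of 11 cytosolic and 2 of 2 mitochondrial ones, and in 0 of 12 ER members and 0 of 5 regulators; 9.04% of all 27025 genes in the table held it (7.86% of its 32851 promoters). The ER stress element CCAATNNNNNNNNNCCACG, searched on both strands, stood in 7 of 12 ER members (Hspa5, Hsp90b1, Calr, Canx, Creld2, Dnajc3 and Pdia6) and in 0 of the other members, against 0.137% of all genes (0.119% of all promoters). No member held both motifs, so they did not overlap. A match describes the letters in this window and is neither a site nor a cause. The stretches of 250 bases before the start of Hspa1a (chr17:34972157-34972406, minus strand) and Hspa5 (chr2:34771840-34772089, plus strand) follow as the example of each kind, 5′ to 3′ along the gene, with the motif in capitals.
Hspa1a: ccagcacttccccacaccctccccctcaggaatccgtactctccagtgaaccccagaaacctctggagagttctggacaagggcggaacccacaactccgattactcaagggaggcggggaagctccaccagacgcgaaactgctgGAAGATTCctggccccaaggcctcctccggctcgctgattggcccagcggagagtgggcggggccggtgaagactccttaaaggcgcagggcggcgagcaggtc
Hspa5: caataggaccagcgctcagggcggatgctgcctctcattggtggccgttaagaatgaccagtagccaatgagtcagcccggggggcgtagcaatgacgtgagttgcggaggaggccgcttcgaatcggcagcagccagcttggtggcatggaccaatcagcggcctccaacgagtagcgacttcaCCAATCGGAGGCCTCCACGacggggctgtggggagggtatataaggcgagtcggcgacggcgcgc

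Hspa1a and its neighbour Hspa1b encode nearly the same inducible Hsp70, and their 300-base promoter entries differed at 4 bases (98.7% identical). Reads can be split between such copies, so the division of UMIs between them is uncertain. The mitochondrial pair Hspd1 (Hsp60) and Hspe1 (Hsp10) lie head to head and share one match, read here from each strand at chr1:55088052-55088083, and Hspb1 (chr5:135887790-135887821, plus strand, the first of its 2 matches) and Dnaja1 (chr4:40722332-40722363, plus strand) show the core in other surroundings.
Hspd1: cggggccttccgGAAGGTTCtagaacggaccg
Hspe1: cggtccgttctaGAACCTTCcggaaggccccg
Hspb1: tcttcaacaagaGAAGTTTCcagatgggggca
Dnaja1: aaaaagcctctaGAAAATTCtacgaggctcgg
Of the ER stress elements, those of Hsp90b1 (chr10:86705626-86705668, minus strand, the first of its 2), Dnajc3 (chr14:118937815-118937857, plus strand) and Pdia6 (chr12:17266479-17266521, plus strand) run with the gene, and that of Calr (chr8:84847063-84847105, minus strand) runs against it, so that its letters appear as the reverse complement.
Hsp90b1: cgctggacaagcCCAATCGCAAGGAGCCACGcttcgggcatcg
Dnajc3: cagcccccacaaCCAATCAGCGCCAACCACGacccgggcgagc
Pdia6: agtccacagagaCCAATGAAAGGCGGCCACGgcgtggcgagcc
Calr: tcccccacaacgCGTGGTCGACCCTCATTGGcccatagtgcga

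The first comparison asked in which cell classes the members were high. UMIs were summed per library and class, and each class was set against the mean of the other 11 in 1 edgeR quasi-likelihood fit with library as a block; a call is a Benjamini-Hochberg adjusted p under 0.05 over 13709 genes. Cytosolic and ER members parted by class: microglia and monocyte-macrophages were high in ER members, one cluster of oligodendrocytes was high in cytosolic and mitochondrial ones, and neuroblasts and neutrophils were low in ER ones. Since each class differs from the others in many genes, every count is read against the share of all genes called in that direction. In 1627 of the genes tested a whole class had 0 UMIs, so that the mean of the other classes could not be estimated; without them these shares moved by at most 3.51 percentage points. Trib3 is the member among these genes, so its fold changes and p-values are not given.

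**Figure D1:**
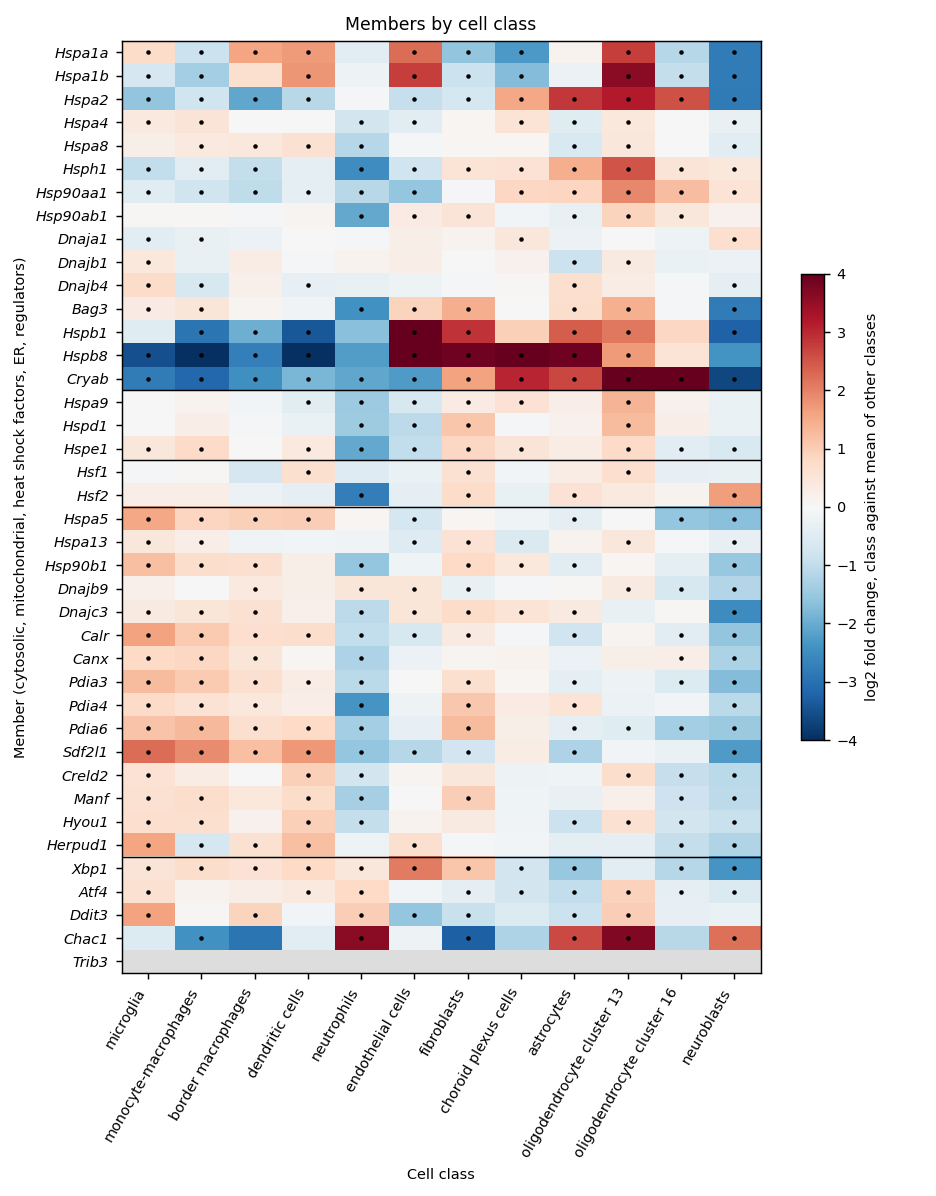
Log2 fold change of the members (rows, Trib3 left grey, grouped by black lines into cytosolic, mitochondrial, heat shock factor, ER and regulator members) in each of 12 cell classes (columns) against the mean of the other classes; colour is capped at 4 in either direction and a dot marks an adjusted p under 0.05 (edgeR). The ER block is red with dots in microglia, where 14 of 15 ER members were higher, and blue with dots in neuroblasts, where 15 of 15 were lower.

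Oligodendrocyte cluster 13 had the most cytosolic members called higher. There 13 of 15 cytosolic members were higher and 0 lower, where 30% of all genes were higher and 21.7% lower; the median log2 fold change was 1.72 over the cytosolic members and 0.05 over all genes. All 3 mitochondrial members were higher there too. Cryab, the small heat shock protein alpha-B crystallin, stood at 504, 458, 1429 and 1161 CPM in this cluster. It was at 603, 596, 364 and 534 CPM in oligodendrocyte cluster 16. In monocyte-macrophages, the lowest class, it was at 1.44, 2.28, 2.62 and 3.41 CPM. The log2 fold changes were 5.50 (SE 0.21, adjusted p = 2.65e-24) and 5.34 (SE 0.22, adjusted p = 1.11e-23) in clusters 13 and 16, whose levels overlapped between libraries. Hsp90aa1, the stress-inducible cytosolic Hsp90, stood at 3378, 2940, 4749 and 3404 CPM in cluster 13, above every library of the next class by mean CPM, astrocytes (1583 to 2938 CPM), and its log2 fold change was 1.92 (SE 0.13, adjusted p = 1.14e-15). Its constitutive partner Hsp90ab1 had a smaller one, 0.88 (SE 0.11, adjusted p = 1.97e-08), and the constitutive Hsp70 Hspa8 one of 0.46 (SE 0.12, adjusted p = 0.0011), which was 0.33 without Ms4a3 cKO 2 (adjusted p = 0.0775, edgeR). The summed CPM of 10 oligodendrocyte markers was 17458 to 35767 in cluster 13 and 66626 to 94099 in cluster 16.

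Inducible Hsp70 was spread unevenly. Hspa1a stood at 725, 332, 205 and 119 CPM in oligodendrocyte cluster 13, highest in Flox control 1. In endothelial cells it was at 400, 118, 159 and 182 CPM, and its log2 fold changes against the other classes were 2.75 (SE 0.27, adjusted p = 1.27e-11) and 2.24 (SE 0.27, adjusted p = 3.98e-09) in these 2 classes. The levels of these classes overlapped, and Flox control 1 was the highest library in both. Hspa1b followed with 3.61 (SE 0.20, adjusted p = 1.06e-18) in cluster 13 and 2.76 (SE 0.22, adjusted p = 2.04e-14) in endothelial cells. Hspa1a was also higher in dendritic cells (1.70), border macrophages (1.57) and microglia (0.72), and lower in neuroblasts (-2.80), choroid plexus cells (-2.30), fibroblasts (-1.57), oligodendrocyte cluster 16 (-1.15) and monocyte-macrophages (-0.85). The call in microglia was lost without Flox control 2, Ms4a3 cKO 1 or Ms4a3 cKO 2 (0.75, 0.40 and 0.78, adjusted p = 0.115, 0.401 and 0.0796, edgeR). Those in cluster 16 (-1.28 and -0.97) and in monocyte-macrophages (-0.83 and -0.92) were lost without Flox control 2 or Ms4a3 cKO 2. Dnajb1, the J-domain partner of inducible Hsp70, varied less: it was higher in microglia (0.43) and cluster 13 (0.36), lower in astrocytes (-0.86) and not called in the other 9 classes. Its call in microglia was lost without Flox control 1 (0.28, adjusted p = 0.115, edgeR), and that in cluster 13 without any 1 of the 4 libraries (0.19 to 0.35).

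By mean CPM the small heat shock proteins were highest outside the immune classes: Hspb1 in endothelial cells, Hspb8 in choroid plexus cells and Cryab in oligodendrocyte cluster 13. Hspb1 (Hsp27), which binds actin and unfolded proteins, stood at 117, 89.2, 109 and 105 CPM in endothelial cells, above every library of the next class, fibroblasts (30.2 to 54.5 CPM), and its log2 fold change was 4.47 (SE 0.29, adjusted p = 6.59e-17). In microglia it was at 3.58, 3.62, 5.27 and 2.47 CPM. Hspb8, the partner of Bag3 in chaperone-assisted autophagy, was higher in choroid plexus cells (4.93), endothelial cells (4.16), fibroblasts (3.90), astrocytes (3.89) and cluster 13 (1.72). In the immune classes it was close to the floor, with 1, 7, 7 and 8 UMIs in microglia, 1, 7, 1 and 1 in monocyte-macrophages and 0 or 1 per library in border macrophages and dendritic cells, so no fold is given there. These classes are part of the mean behind the folds of Hspb8 above, which are large for that reason as well. Its mean CPM was 44.9 in choroid plexus cells and 27.1 in the next class, endothelial cells, with overlap between libraries. Cryab was lower in all 7 immune, endothelial and neuroblast classes. The testis-enriched Hsp70 Hspa2 was higher in oligodendrocyte clusters 13 (3.17) and 16 (2.55), astrocytes (2.84) and choroid plexus cells (1.54).

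ER members were most often called higher in resident and infiltrating phagocytes. By mean CPM microglia were the highest class for Hspa5, Calr, Canx, Pdia3, Herpud1 and Sdf2l1. Fibroblasts were highest for Hsp90b1, Dnajc3, Hspa13, Manf, Pdia4 and Pdia6, oligodendrocyte cluster 13 for Creld2 and Dnajb9, and dendritic cells for Hyou1. In microglia 14 of 15 ER members were higher and 0 lower, where 34.7% of all genes were higher and 18.8% lower; Dnajb9, a BiP co-chaperone, was not called (log2 fold change 0.19, adjusted p = 0.18). Monocyte-macrophages had 12 higher and 1 lower (35.7% and 22.1% of all genes), border macrophages 11 and 0 (22.4% and 18.8%) and dendritic cells 9 and 0 (25% and 21%). The higher calls of Dnajc3 in microglia (0.21 to 0.31) and Hspa13 in monocyte-macrophages (0.11 to 0.29) were lost without any 1 of the 4 libraries. Cytosolic members went mostly the other way in monocyte-macrophages, where 10 of 15 were lower and 3 higher (median log2 fold change -0.65 against 0.09 over all genes). In microglia they were divided, with 7 lower and 5 higher (-0.41 against 0.11). Calls lost there with at least 1 choice of library left out were Hspa1b and Hsp90aa1 among the lower and Bag3, Dnajb1 and Hspa1a among the higher. Hspa5 stood at 3562, 3997, 3225 and 2922 CPM in microglia. In neuroblasts it was at 842, 831, 556 and 531 CPM, so no library of one class overlapped the other. Its log2 fold changes were 1.53 in microglia (SE 0.13, adjusted p = 7.12e-13) and -1.67 in neuroblasts (SE 0.18, adjusted p = 3.17e-10). Sdf2l1, an ER protein that works together with the J-domain co-chaperone Dnajb11, stood at 162, 163, 112 and 116 CPM in microglia and had the largest change of the ER members there, 2.23 (SE 0.15, adjusted p = 1.07e-16), followed by calreticulin (Calr), 1.61, Herpud1, an ER-associated degradation adaptor, 1.56, and Hspa5.

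In neuroblasts 15 of 15 ER members were lower (29.8% of all genes), with a median log2 fold change of -1.25 against -0.17 over all genes. Dnajc3, a BiP co-chaperone that also inhibits the kinase PERK, had -2.52 there (SE 0.18, adjusted p = 7.72e-16). Of the 15 cytosolic members 9 were lower there and 3 higher, with a median of -0.45. The higher ones were Dnaja1 (0.66), Hsp90aa1 (0.55) and Hsph1 (0.43), and heat shock factor 2 (Hsf2, 1.66) was higher as well. Hsp90aa1 lost its call without Ms4a3 cKO 2 (0.45, adjusted p = 0.0659, edgeR) and Hsph1 without Flox control 1, Flox control 2 or Ms4a3 cKO 1 (0.35 to 0.39). Neutrophils had 11 ER members lower and 1 higher (27.7% and 25.3% of all genes), 7 of 15 cytosolic members lower and 0 higher, and 3 of 3 mitochondrial members lower. Their ER member with the largest change was the disulfide isomerase Pdia4, -2.35 (SE 0.26, adjusted p = 2.36e-10), while Hspa5 was not called (0.08, adjusted p = 0.72) and Dnajb9 was higher (0.50). Oligodendrocyte cluster 16 had 9 ER members lower and 1 higher (28.3% and 27.8% of all genes). Fibroblasts, a secretory class, had 8 higher and 2 lower (27.2% and 21.5%), with Pdia6 at 1.27, and 3 of 3 mitochondrial members higher (Hspa9 was not called without Flox control 2, Ms4a3 cKO 1 or Ms4a3 cKO 2, at 0.32, 0.15 and 0.28), and endothelial cells had 3 of 3 mitochondrial members lower (21.3%). The remaining classes were mixed: 8 cytosolic members were higher and 4 lower in astrocytes (32% and 25.3% of all genes), with 2 and 7 for the ER members, and in choroid plexus cells 7 and 2 cytosolic and 2 and 1 ER members were called (24% and 25.5%). In astrocytes the lower calls of Hspa5, Hsp90b1, Pdia6, Pdia3 and Hsp90ab1 and the higher call of Dnajc3 were each lost with at least 1 choice of library left out. Endothelial cells had 6 cytosolic members higher, Hspb1 among them, and 5 lower (25.2% and 21.3%).

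The stress response regulators went with the ER chaperones in some classes and not in others. Leaving Trib3 aside, 3 of 4 were higher and 0 lower in microglia, 1 higher and 3 lower in astrocytes, 0 and 2 in cluster 16 and 1 and 2 in neuroblasts, where the ER members had 14 and 0, 2 and 7, 1 and 9, and 0 and 15. The higher one in neuroblasts was Chac1, which rested on 10 of its 13 UMIs in Flox control 1 and was not called without that library (0.34, adjusted p = 0.812, edgeR). In neutrophils, low in chaperones, all 4 were higher (25.3% of all genes): Chac1, a glutathione-degrading enzyme, by 3.62 on the log2 scale (SE 0.54, adjusted p = 3.13e-07) on 6, 12, 16 and 5 UMIs, Ddit3 by 0.98, Atf4 by 0.80 and Xbp1 by 0.46. Xbp1 was not called there without Ms4a3 cKO 1 (0.14, adjusted p = 0.655, edgeR). Cluster 13 had 3 of the 4 higher. Trib3, an Atf4-induced pseudokinase, stood highest there by mean CPM, at 8.63, 11.5, 8.56 and 9.98 CPM. In the next class, endothelial cells, it was at 3.58, 3.70, 3.72 and 6.11 CPM, and neuroblasts had 0 UMIs of it. Xbp1 was highest in endothelial cells, at 186, 280, 587 and 325 CPM (log2 fold change 2.07, SE 0.15, adjusted p = 1.03e-15). The counts do not tell the spliced form of Xbp1 from the unspliced one. Ddit3 was higher in microglia by 1.62 (SE 0.15, adjusted p = 6.85e-12) at 9.02, 28.1, 60.2 and 45.8 CPM, lowest in Flox control 1. Of the heat shock factors, which are regulated mostly after translation, Hsf1 was higher in dendritic cells (0.63), fibroblasts (0.62) and cluster 13 (0.67). These 3 calls were lost without any 1 library in fibroblasts, and without 3 of the 4 in the other two: all but Flox control 1 in dendritic cells and all but Ms4a3 cKO 2 in cluster 13, with values of 0.49 to 0.73.

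Markers of tissue handling differed between classes as well. Summed over 15 immediate-early genes that dissociation is known to induce, levels were 16921 to 21009 CPM in microglia, 17240 to 28077 CPM in neutrophils and 6133 to 10232 CPM in monocyte-macrophages, and 1696 to 4315 CPM in oligodendrocyte clusters 13 and 16. In microglia 15 of these 15 genes were higher and in cluster 13 14 were lower. Their part in the differences between classes was not tested.

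The rule for these genes sets cytosolic against ER chaperones, and the ratio of their summed UMIs gave an order of classes that all 4 libraries shared in its ends. In microglia the ratio was 0.219, 0.21, 0.237 and 0.223, the lowest of any class (mean log2 ratio -2.17 ± 0.07 SD, n = 4). Monocyte-macrophages followed with 0.265, 0.248, 0.308 and 0.287. At the other end, neuroblasts had 1.59, 1.36, 1.82 and 1.79 (mean log2 ratio 0.71 ± 0.19 SD, n = 4), oligodendrocyte cluster 13 1.23, 1.13, 1.57 and 1.65 and cluster 16 1.40, 1.31, 1.08 and 1.48. These 3 classes were the ones with more cytosolic than ER UMIs in every library. Many neighbours in the order overlapped. Border macrophages did so with monocyte-macrophages, and the 3 top classes with each other. Between these, each class from neutrophils through fibroblasts, endothelial cells, choroid plexus cells and astrocytes to cluster 16 overlapped with the next. Hsp90aa1 made up 32% of all cytosolic and Hspa5 34.3% of all ER UMIs.

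**Figure D2:**
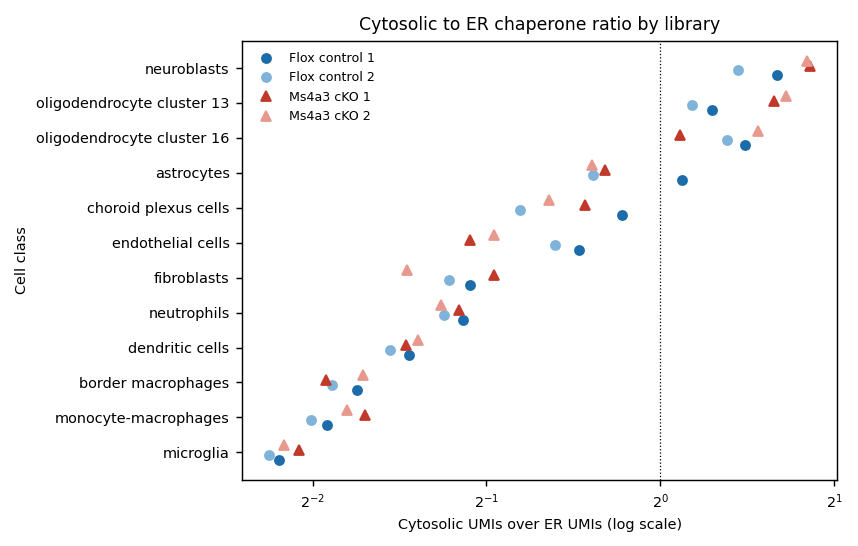
Ratio of summed cytosolic to summed ER chaperone UMIs (log axis) in each of 12 classes (rows, ordered by mean), 1 point per library; circles are Flox control and triangles Ms4a3 cKO libraries, and the dotted line is a ratio of 1. Microglia lie lowest, at 0.21 to 0.237, and neuroblasts highest, at 1.36 to 1.82.

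By genotype the ratio did not overlap in 5 classes, in both directions. In monocyte-macrophages it was higher in both Ms4a3 cKO libraries, by 0.21 on the log2 scale, in microglia by 0.10, in oligodendrocyte cluster 13 by 0.45 and in neuroblasts by 0.29. In endothelial cells it was lower, at 0.723 and 0.657 against 0.469 and 0.515, a log2 difference of -0.49. Taken as the mean log2 CPM of the members instead of summed UMIs, the difference in cluster 13 was 0.02. With 2 libraries against 2, the two-sided exact permutation test cannot go below p = 0.333, which is the value in each of these 5 classes; 12 classes were compared, so no class passed. Without Hsp90aa1 and Hspa5, the most abundant member of each group, the difference in microglia was -0.01.

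Counted per cell, with every cell thinned to 1000 UMIs and shallower cells left out, Cryab was detected in 48.3%, 36.2%, 55.6% and 58.5% of the cells of oligodendrocyte cluster 13. In microglia, which are not known to make it, the shares were 0.15%, 0.39%, 0.50% and 0.38%; unthinned, they were 77.2% to 88.3% and 1.32% to 2.60%. Hspb1 was found in 12.4%, 8.81%, 10.4% and 9.01% of endothelial cells and in 0.1%, 0, 0 and 0% of dendritic cells (unthinned 22% to 29.7% and 0 to 0.288%). Hspa1a was found in 21.9%, 7.83%, 8.99% and 9.89% of endothelial cells and in 20%, 16.4%, 20.4% and 17.3% of cluster 13, against 0.66% to 2.27% of choroid plexus cells. Its CPM in cluster 13 differed between libraries far more than these shares did. Unthinned, the shares were 15% to 35.9% in endothelial cells, 30.4% to 36.7% in cluster 13 and 1.26% to 7.61% in choroid plexus cells. Hspa5 was found in 84.2% to 87.8% of microglia and in 27.7% to 38.6% of neuroblasts, and unthinned in 98.7% to 99% and 55.8% to 75.2%. Thinning left out 21 to 48 microglia and 8 to 237 endothelial cells per library.

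The series sets infiltrating macrophages against resident microglia, and 16 of 39 members tested differed between these classes in the same 4 libraries, 4 higher and 12 lower in monocyte-macrophages (edgeR, library as a block), where 51.6% of 13941 genes were called, 25.8% in each direction. Mitochondrial chaperones and 2 Hsp70 family members were the higher ones: Hspa2 by 0.73 (SE 0.11, adjusted p = 0.0032), Hsph1 by 0.53 (SE 0.10, adjusted p = 0.0081), Hspe1 by 0.32 and Hspd1 by 0.28. The lower ones were led by Hspb1, at -2.23 (SE 0.25, adjusted p = 0.0011), Herpud1, at -2.05 (SE 0.16, adjusted p = 0.00031), Chac1, at -1.75, and Hspa1a, at -1.38 (SE 0.14, adjusted p = 0.00066). Herpud1 stood at 74.5, 76.6, 78.9 and 117 CPM in monocyte-macrophages against 479, 368, 369 and 362 CPM in microglia, so the classes did not overlap in any library. Hspa1a was at 21.1, 16.5, 25.9 and 22 CPM against 68.8, 44.4, 97.6 and 46.3 CPM. Ddit3 (-1.37), Dnajb1 (-0.64), Hspa5 (-0.59), Calr (-0.50), Hsp90b1 (-0.44), Atf4 (-0.39) and Sdf2l1 (-0.31) were also lower, with Dnajb4 at -1.24. Of the 15 immediate-early genes 12 were lower and 0 higher in this comparison as well, and their part in it was not tested. Hspd1 lost its call without Flox control 1, Flox control 2 or Ms4a3 cKO 2 (0.17, 0.29 and 0.30), and Hsp90b1 without Ms4a3 cKO 2 (-0.41, adjusted p = 0.0622, edgeR). Without the library block 0 members were called higher and 6 lower. The share of all genes called under that setting is not given.

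Each class mixes states that the libraries hold in unequal numbers. Microglia fell into clusters 0, 1, 2 and 8, and cluster 1 held 250, 1388, 2234 and 2320 cells, cluster 2 3018, 618, 144 and 604. Ddit3 was highest in cluster 1, at 31.3, 60.2, 149 and 85.4 CPM, against 7.61, 19.6, 28 and 35.4 CPM in cluster 0. Sdf2l1 was lowest there, at 70.4, 56.2, 58.3 and 41.9 CPM in cluster 1 against 207, 196, 130 and 138 CPM in cluster 0 and 223, 213, 144 and 149 CPM in cluster 8. Of the monocyte-macrophages, cluster 4 made up most in Flox control 1 (3029 of 3919 cells), cluster 3 most in Flox control 2 (3526 of 4367) and cluster 5 most in Ms4a3 cKO 1 and 2 (1675 of 2930 and 926 of 1575). Values over these classes therefore compare different mixtures of clusters as well as genotypes. Among oligodendrocyte clusters, Cryab was lowest in cluster 11, at 249 and 259 CPM in the 2 Ms4a3 cKO libraries that hold it.

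**Figure D3:**
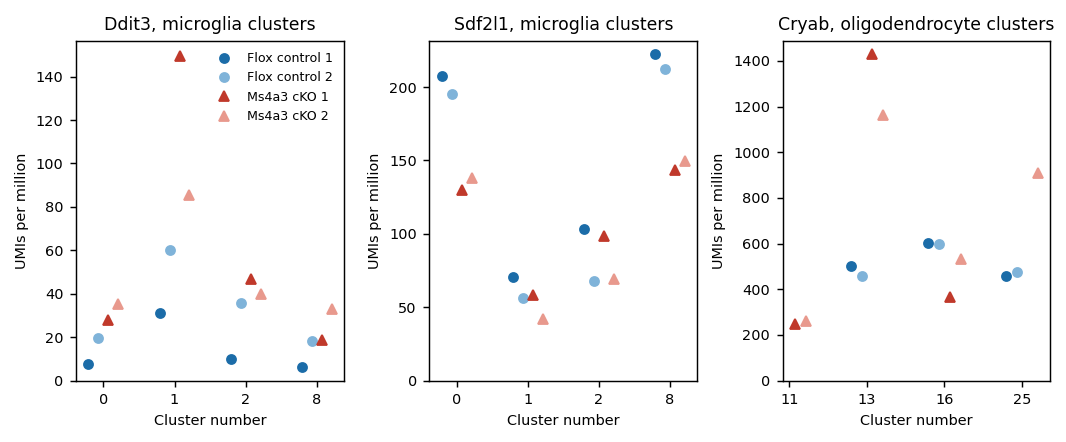
CPM (linear axes from 0) of Ddit3 and Sdf2l1 in microglial clusters and of Cryab in oligodendrocyte clusters, 1 point per library with at least 50 cells of the cluster; circles are Flox control and triangles Ms4a3 cKO libraries. Ddit3 is highest in cluster 1, where Sdf2l1 is lowest, and within cluster 0 both Ms4a3 cKO libraries lie below both Flox controls for Sdf2l1 (130 and 138 against 207 and 196).

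The genotype comparison asked whether the members differed between Ms4a3 cKO and Flox control libraries. No member passed in any of 12 classes (edgeR, adjusted p under 0.05, 2 against 2 libraries), where 0% of genes were called in microglia, monocyte-macrophages and neutrophils and at most 0.889% in any class, oligodendrocyte cluster 16. Border macrophages had 0.195%, choroid plexus cells 0.0256% and astrocytes 0.00861% of genes called, and the other 5 classes 0%. In simulated counts this test recovered 12%, 2% and 1% of 2-fold changes in microglia, monocyte-macrophages and neutrophils. The lack of calls therefore does not show equal levels. At an unadjusted p under 0.05, 8 of 39 members tested in microglia, 11 of 37 in monocyte-macrophages and 1 of 29 in neutrophils were below it, as were 1534 of 14418, 1570 of 13291 and 449 of 6521 genes. The largest such count was in dendritic cells, with 18 of 36 members, all lower, and 8.74% of all genes. DESeq2 called 0 members in microglia and neutrophils, where it called 281 of 13295 and 58 of 6645 genes. In monocyte-macrophages it called 2 members (Creld2 and Sdf2l1) beside 420 of 12511 genes. Its 5 calls in the other classes were Cryab and Hspb1 in astrocytes (238 of 10049 genes called), Cryab in fibroblasts (176 of 9867) and Cryab and Hspa1a in oligodendrocyte cluster 13 (128 of 9763). Without Flox control 2, edgeR called 19 members in microglia (16 of them lower), but then also 30.4% of all genes, and 16 in monocyte-macrophages (15 lower) beside 32.5% of all genes; without Flox control 1 it called 0 in both. In the other classes together, too, more members were called without Flox control 2 than without Flox control 1. In dendritic cells, neuroblasts, fibroblasts and border macrophages many genes outside the list were then called as well. These calls are therefore not read as a result about the members. The lone control is assumed in these fits to vary like the other libraries.

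In microglia the ER members lay lower and the regulators higher in the Ms4a3 cKO libraries, without passing the test. The log2 fold change was negative for 14 of 15 ER members (median -0.32 against 0.00 over all genes), and for 6 of them both Ms4a3 cKO libraries lay below both controls, as 15.3% of all genes did. Sdf2l1 was at 162 and 163 CPM in the controls and at 112 and 116 CPM in the Ms4a3 cKO libraries, with no overlap (log2 fold change -0.66, SE 0.14, adjusted p = 0.47). Creld2, a secreted ER stress protein, was at 29.5 and 31.4 against 21.7 and 21.9 CPM (-0.62, adjusted p = 0.47, SE 0.15). For Pdia4 the values were 50.5 and 53.8 against 42 and 40.6 CPM (-0.48, adjusted p = 0.47, SE 0.14). These pairs of libraries sat close together.

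All 5 regulators had positive values in microglia, and in all 5 both Ms4a3 cKO libraries lay above both controls, as 34.3% of all genes did. Ddit3 was at 9.02 and 28.1 against 60.2 and 45.8 CPM (1.42, adjusted p = 0.47, SE 0.49), with the controls further apart than the Ms4a3 cKO libraries. Within cluster 0 alone it was at 7.61 and 19.6 against 28 and 35.4 CPM. Atf4 was at 101 and 157 against 191 and 163 CPM, and Xbp1 at 102 and 86.8 against 121 and 111 CPM. Chac1 and Trib3 rest on 17 to 56 and 7 to 43 UMIs per library. Among cytosolic members 11 of 14 tested were negative: Hsph1, the nucleotide exchange factor Hsp110, was at 33 and 23.4 against 19.7 and 15.5 CPM (-0.84, adjusted p = 0.47, SE 0.29), and Dnajb1 at 114 and 72.9 against 52 and 62 CPM (-0.88, adjusted p = 0.47, SE 0.31). Dnaja1 had -0.41 (adjusted p = 0.51) and Hspa4, which overlapped between genotypes, -0.23 (adjusted p = 0.52). The summed microglial markers were 29196 and 19822 CPM in the controls against 15923 and 16920 CPM in the Ms4a3 cKO libraries; their part in these differences was not tested.

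**Figure D4:**
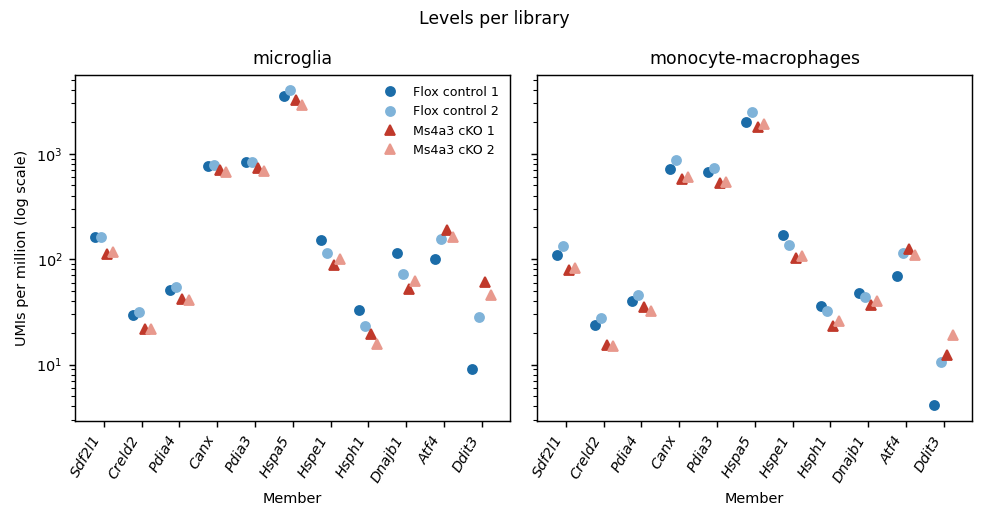
CPM (log axis) of 11 members in microglia (left) and monocyte-macrophages (right), 1 point per library; circles are Flox control and triangles Ms4a3 cKO libraries. For Sdf2l1, Creld2 and Pdia4 both Ms4a3 cKO libraries lie below both controls in both classes, and for Ddit3 both lie above.

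In monocyte-macrophages, a class that Ms4a3-Cre is meant to reach, as it is neutrophils, ER members lay lower as well. The log2 fold change was negative for 14 of 15 (median -0.49 against -0.02 over all genes), with 10 of 15 below both controls in both Ms4a3 cKO libraries, as 17.6% of all genes were. Sdf2l1 was at 109 and 135 against 79.6 and 81.7 CPM (-0.76, adjusted p = 0.33, SE 0.14), and Creld2 at 23.6 and 27.6 against 15.4 and 15 CPM (-0.92, adjusted p = 0.33, SE 0.18). Calnexin (Canx), the membrane-bound lectin chaperone, was at 722 and 867 against 579 and 599 CPM (-0.60, adjusted p = 0.37, SE 0.17). Pdia3, a protein disulfide isomerase that works with calnexin, was at 668 and 727 against 524 and 543 CPM (-0.56, adjusted p = 0.40, SE 0.18). None of the 4 overlapped between genotypes. Of the cytosolic members, Hsph1 was at 35.7 and 31.9 against 23.3 and 25.9 CPM (-0.65, adjusted p = 0.42, SE 0.24), and Dnajb1 (-0.45), Hsp90aa1 (-0.44) and Hspa4 (-0.25) had smaller values. Immediate-early genes moved the other way here, at 6133 and 7081 CPM summed in the controls against 10232 and 9303 CPM, with 12 of 15 above both controls. Microglial markers, by contrast, lay lower in the Ms4a3 cKO libraries of this class, at 8735 and 4552 CPM summed against 2695 and 3516 CPM, with none of the 10 at 0; the part of either list was not tested.

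The interaction term, which tests whether the genotype effect differed between these 2 classes, called 0 of 39 members (0% of 14909 genes, edgeR). Its median was -0.19 over the ER members and 0.01 over all genes. An unadjusted p under 0.05 was found for 4 members (Hyou1, Trib3, Manf and Dnajb1). The share of all genes below it is not given, so this count is not read as a result about the members. The lack of calls does not show that the effects were alike. Without Flox control 2, which leaves 1 control, the term called members, again with no share of all genes beside them. Of 13 ER members tested in neutrophils, 6 had a positive log2 fold change (median -0.11 against 0.01 over all genes). Both Ms4a3 cKO libraries lay below both controls for 3 of the 13, as for 15.3% of all genes. In neutrophils Hspa1a was at 40.7 and 49.6 against 20.3 and 26.3 CPM, on 13, 34, 58 and 15 UMIs (log2 fold change -1.01, SE 0.41, adjusted p = 0.70). Dnaja1 was at 482 and 461 against 243 and 328 CPM (-0.79, adjusted p = 0.75, SE 0.35), and Hspa5 at 1962 and 1764 against 1051 and 1404 CPM (-0.67, adjusted p = 0.87). Hyou1, the ER Hsp110, had -1.20 and Chac1 -1.42, each on at most 40 UMIs in a library; Herpud1 (0.58), Dnajb1 (0.47) and Dnajb4 (-0.37) had adjusted p-values of 0.85 to 0.96. Neutrophil immediate-early genes were at 27819 and 28077 CPM in the controls against 17240 and 18535 CPM, and their part was not tested.

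In the other classes the 2 members with the smallest p in each often included Cryab and Hsph1. Cryab was at 504 and 458 against 1429 and 1161 CPM in oligodendrocyte cluster 13 (log2 fold change 1.60, SE 0.28, adjusted p = 0.14). It was at 39.8 and 102 against 315 and 199 CPM in astrocytes (1.82, adjusted p = 0.25, SE 0.46), and at 15.1 and 40.4 against 178 and 128 CPM in fibroblasts (2.34, adjusted p = 0.25, SE 0.47). All 3 classes had both Ms4a3 cKO libraries above both controls, and DESeq2 called Cryab in each, but in cluster 16 the order was opposite, at 603 and 596 against 364 and 534 CPM. The summed oligodendrocyte markers were 496 and 684 against 437 and 502 CPM in astrocytes and 499 and 552 against 317 and 549 CPM in fibroblasts; their part in the Cryab values was not tested. Hspa1b in cluster 13 was at 368 and 278 against 151 and 85.9 CPM (-1.28, adjusted p = 0.21, SE 0.31), with cells per library of 61, 312, 992 and 486.

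Hsph1 was among the 2 in 4 classes: in choroid plexus cells at 160 and 105 against 44.9 and 31.7 CPM (-1.73, adjusted p = 0.29, SE 0.35), in neuroblasts with -1.18, in endothelial cells with -1.17 and in fibroblasts with -0.97. Dendritic cells had negative values for all 15 ER members, 12 of them without overlap where 19% of all genes lay so; Hspa5 was at 3777 and 3231 against 2007 and 2103 CPM (-0.86, adjusted p = 0.41, SE 0.22) and Hspa8 at 468 and 468 against 285 and 282 CPM (-0.81, adjusted p = 0.41, SE 0.21). These rest on 1034 and 1041 cells in the controls against 138 and 98. Microglial markers lay lower there too, at 3034 and 3313 CPM summed against 1771 and 2754 CPM, with 1 of the 10 at 0 in Ms4a3 cKO 1, and their part was not tested. The remaining pairs were Hspe1 in astrocytes (-0.92), Hspa1a and Atf4 in border macrophages (0.95 and 0.53), Pdia4 in choroid plexus cells (-1.19), Manf, an ER-retained trophic factor, in endothelial cells (0.67) and neuroblasts (-1.12), and Atf4 and Dnaja1 in oligodendrocyte cluster 16 (0.71 and -0.53), with adjusted p-values of 0.22 to 0.75.

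**Figure D5:**
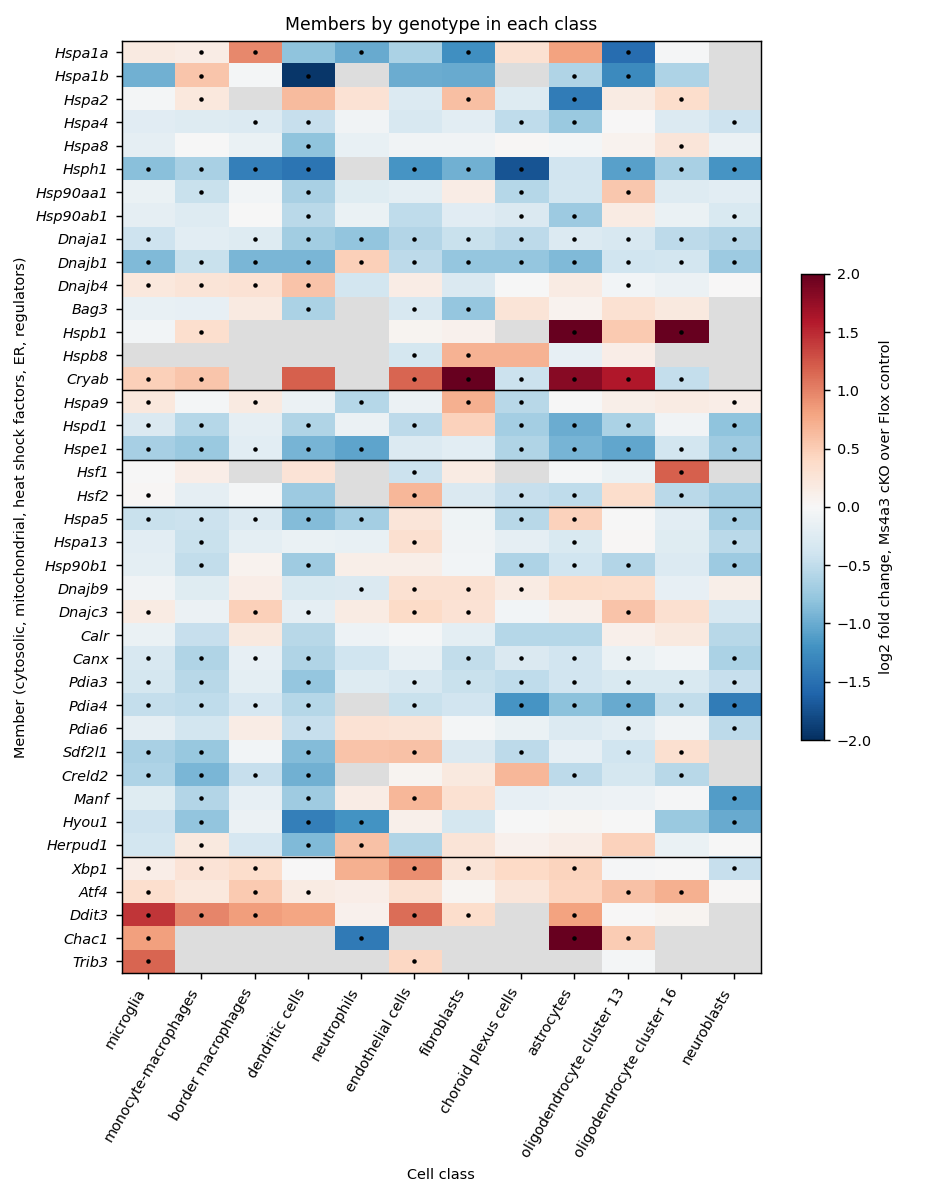
Log2 fold change of each member (rows, grouped as in the plot by cell class) between Ms4a3 cKO and Flox control libraries in 12 classes (columns); colour is capped at 2 in either direction, grey was not tested, and a dot marks members whose Ms4a3 cKO libraries both lie above or both below both controls. No member passed an adjusted p under 0.05; the rows of Dnaja1, Dnajb1, Hsph1, Hspe1, Pdia3 and Pdia4 are blue with dots in 10 or 11 classes.

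Members whose Ms4a3 cKO libraries both lay on one side of both controls were counted in each class. In microglia 10 of 39 tested lay above and 11 below (34.3% and 15.3% of all genes), and in monocyte-macrophages 9 and 15 of 37 (30.2% and 17.6% of all genes). Dendritic cells had 2 above and 23 below of 36 (22.9% and 19% of all genes), neuroblasts 1 and 17 of 27 (22.3% and 16.8%) and choroid plexus cells 1 and 17 of 34 (16.4% and 23.2%), the classes with the most members on the lower side for their number. Astrocytes had 6 above and 15 below of 39 (24.8% of all genes on each side), oligodendrocyte cluster 13 had 5 and 14 of 40 (14.5% and 31.9%) and cluster 16 had 6 and 9 of 37 (24% and 19.9%). The counts were 7 and 9 of 33 in border macrophages (21.4% and 22.8%), 2 and 8 of 29 in neutrophils (18.6% and 15.3%), 10 and 9 of 39 in endothelial cells (21.7% and 17.1%) and 8 and 7 of 38 in fibroblasts (26.2% and 16.4%).

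Read across classes, a few members kept their side in nearly every cell type. Both Ms4a3 cKO libraries lay below both controls in 11 of 12 classes for Dnaja1 and Dnajb1, in 10 of 12 for Hspe1 and Pdia3, in 10 of 11 tested for Hsph1 and Pdia4 and in 9 of 12 for Canx. Of the 24 members tested in every class 4 did so in at least 10 classes, as 0.952% of 4624 genes did, and 0 lay above in at least 10, as 0.995% did. The log2 fold change of Dnaja1 was negative in all 12 classes, from -0.79 to -0.20 (median -0.49), and that of Hspe1 in all 12 (median -0.69). Dnajb1 was negative in 11 (median -0.75), with neutrophils the exception. Atf4 was positive in all 12 (median 0.28) and Ddit3 in all 10 where it was tested (median 0.79). Both Ms4a3 cKO libraries lay above both controls in only 5 classes for Atf4 and 6 for Ddit3. Of the 4624 genes, 24.7% and 16.2% did so in at least as many classes. How many of all genes keep one sign in every class was not counted. Hspa8, the constitutive Hsp70, had a median of -0.06. The threshold of 10 was chosen after these values were seen, no test was made, and the classes share the same 4 libraries, so they are not separate observations of the genotype. Depth differed in the same direction, and the difference between libraries cannot be told apart from that between genotypes.

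Neighbouring genes of the same pathways, from lists that held no member, gave 0 genotype calls in microglia, monocyte-macrophages and neutrophils. In a list of 30 genes, most of them cytosolic co-chaperones and chaperonin subunits, Fkbp5, an Hsp90 co-chaperone induced by glucocorticoids, St13, which links Hsp70 to Hsp90, and P4ha1, a collagen prolyl hydroxylase of the ER that the list also holds, had the smallest p in all 3 classes. Fkbp5 had 1.57, 2.46 and 1.70 in microglia, monocyte-macrophages and neutrophils (adjusted p = 0.21, 0.31 and 0.31), St13 -0.69, -0.87 and -1.19 (adjusted p = 0.47, 0.34 and 0.38) and P4ha1 -1.02, -1.04 and -0.87. Among 31 ER folding, sensor and degradation genes the leading ones were Atf6 (0.57), Selenos (0.42) and Eif2ak3 (0.41) in microglia, Dnajb11 (-0.56), Ern1 (0.44) and Derl2 (-0.40) in monocyte-macrophages, and Ero1l (-0.93), Ppib (1.47) and Syvn1 (1.19) in neutrophils, none with an adjusted p under 0.42. Among 24 integrated stress response targets they were Ddit4, Cebpb (0.74) and Eif2ak4 (0.35) in microglia, Ddit4, Cebpb (1.49) and Ppp1r15a (0.67) in monocyte-macrophages, and Atf3 (-1.92), Slc7a11 (-1.07) and Asns (1.31) in neutrophils. Between classes, 19 of 30 tested genes of the ER list were higher and 2 lower in microglia (34.7% and 18.8% of all genes), 21 and 0 in monocyte-macrophages (35.7% and 22.1%), and 1 and 22 in neuroblasts (28.8% and 29.8%), the direction of the ER members. In neutrophils the list had 8 higher and 12 lower (25.3% and 27.7%) and in cluster 16 9 and 9 (27.8% and 28.3%), where the ER members had 1 and 11, and 1 and 9.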

How the data were processed

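Each of the 4 libraries came as a matrix of counts, whole UMIs per gene and barcode, which the authors deposited; per the submitters' processing notes fastp 0.24.0, STARsolo and the mm10 build were used, and no source used here gives further settings. Libraries were grouped by their titles. Barcodes were kept from 500 UMIs and 250 genes upward and up to 20% mitochondrial UMIs, and predicted doublets (1.50% to 2.50% per library) were removed with scanpy 1.11.5; 15 barcodes occurred in more than 1 library. Cells were clustered (leidenalg 0.10.2) on 1992 variable genes, with the 8 that were members or pathway genes left out, and classes were named from marker genes.

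UMIs were summed per library and class, scaled by TMM, filtered for low counts and tested with edgeR 4.0.16 (quasi-likelihood, Benjamini-Hochberg over all genes); the class fits had library as a block. DESeq2 1.42.0, other filters, other clusterings, a replicate block and leaving out each library were alternatives. The scripts were tested on simulated data with known changes. For 2-fold changes the genotype test recovered 12%, 2% and 1% in microglia, monocyte-macrophages and neutrophils. For 4-fold changes it recovered 70%, 39% and 24%. Intervals and shares cover counting error only.

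The members and lists were chosen with earlier results of these data known. Named by rule were, for the genotype, the 4 cytosolic and the 4 ER or regulator members with the smallest p in microglia, monocyte-macrophages and neutrophils, the 2 members with the smallest p in each other class, 3 genes per pathway list, the 4 members most changed each way in monocyte-macrophages against microglia, any member at least 2 times the next class in every library (Hspb1), and 15 members always; members singled out elsewhere were chosen after their values were seen. Replicate numbers did not pair the libraries.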

Additional observations from a re-analysis of the deposited data

How the results depend on the processing

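Member counts by genotype depended most on Flox control 2. Leaving out each library in turn gave 0 to 19 members in microglia, 0 to 16 in monocyte-macrophages and 0 to 43 in the other classes, and over all genes 0 to 4608, 4 to 4309 and, in neutrophils, 0 to 48; the cause was not tested. DESeq2 called 2 members in monocyte-macrophages and 5 in the other classes, and over all genes 281 in microglia, 420 in monocyte-macrophages and 58 in neutrophils. With no filter on low counts the members called were 1 in monocyte-macrophages and 16 in the other classes, and the genes 20, 670 and 163. For the other classes no count over all genes is set beside the 16, nor beside their counts with a library left out. Neither is read as a result about the members. In the monocyte-macrophage cluster best filled in every library 1 gene was called. Same-numbered libraries had correlated deviations of -0.13, -0.12 and 0.26 in these 3 classes, so the numbers were not taken as pairs; with the replicate block 0 members were called in them, 1 in the other classes, and 30 genes in neutrophils. A crossed pairing, chosen after seeing the data, called 0 members and 33 and 80 genes in microglia and monocyte-macrophages. Between monocyte-macrophages and microglia DESeq2 called 7 members higher, and without the library block 0 were higher and 6 lower. The shares of all genes under these settings are not given, so the changes are not read as particular to the members. Under the alternatives run, the interaction called members only without Flox control 2, and the share of all genes called there is not given. The genotype difference in the cytosolic to ER ratio turned to -0.0099 in microglia without the most abundant members, and ran from -0.0725 to 0.0346 in neutrophils with a library left out (0.0346 without Flox control 1, 0.0313 without Ms4a3 cKO 2). Mean shares of cells with a UMI were higher at greater depth: unthinned and at 2000 UMIs they were 82% and 67.6% for Cryab in oligodendrocyte cluster 13, 24.5% and 17.6% for Hspb1 in endothelial cells, and in microglia 17.7% and 10.1% for Hspa1a, 16.3% and 7.71% for Ddit3 and 44.7% and 18.6% for Sdf2l1. Hspa13 in monocyte-macrophages against the other classes turned to -0.056 with DESeq2 size factors and -0.058 with DESeq2. The totals of 167 higher and 136 lower calls between classes, those of Trib3 included, stayed within 1.5 times under every alternative run. Single calls did not all hold: leaving Trib3 aside, 47 were lost without the library block, 33 with no filter on low counts and 29 with DESeq2. Where leaving out a library left a member with 0 UMIs in a whole class, its class tests were void and are not counted. The share of genes with UMIs in every class, given with the class results, was added after seeing the data.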
